A study of Homo sapiens with 9 samples.

Results

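The genes described here are 39 that bring new proteins into the endoplasmic reticulum (ER), cut and fold them there, and remove those that misfold. They were chosen by function, as genes of the unfolded protein response, ER folding, the translocon and signal peptidase. The choice was made with earlier results of these data known. Each gene was matched by Ensembl identifier and symbol to 1 row of the 60676 genes in the count table. One of them, SPCS3, was already known to be lower with the second hairpin when the group was drawn up, so its change with that hairpin is given as a description without a test. The RNA came from A549, an established human lung adenocarcinoma line of epithelial origin. Cells transduced with the short hairpin shLITATS1-1 or shLITATS1-2, both directed against the long noncoding RNA LITATS1, were compared with cells transduced with the non-targeting hairpin shNT. In all 3 groups, the controls included, cells were exposed to lentivirus overnight, kept for 2 days, selected with puromycin at 1 ng/mL and taken after another 3 days. Each group held 3 libraries called biological replicates. The labels do not say whether each came from its own transduction. The p-values therefore speak only of the spread among these libraries, which may be technical. Each LITATS1 hairpin is a single construct, and its sequence, not given in the sources used here, was not looked at.

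A protein bound for secretion or for a membrane enters the ER through the SEC61 channel, helped by the TRAP complex, and signal peptidase removes its signal peptide on the luminal side. Chaperones led by BiP, the product of HSPA5, hold the chain while calnexin and calreticulin bind its sugars and disulfide isomerases pair its cysteines, and chains that fail are sent to the proteasome by ER-associated degradation. When unfolded chains build up, the sensors IRE1, PERK and ATF6 start the unfolded protein response (UPR), which raises chaperone genes, in part through the ER stress response element in their promoters. In the lung this machinery is best known from alveolar type II cells, which pass surfactant proteins through it.

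The libraries held 19610514 to 19989652 gene fragments each, and levels below are TMM-scaled CPM, that is counts scaled to a common library size. LITATS1, on which the labels can be checked, averaged 3.33 ± 0.405 CPM with shLITATS1-1 and 3.02 ± 0.321 CPM with shLITATS1-2, against 15.1 ± 1.51 CPM with shNT (SD, n = 3 each). The 9 epithelial and A549 markers were all expressed and summed to 24069 to 24642 CPM with shLITATS1-1 and 12505 to 12950 CPM with shLITATS1-2, against 17597 to 17929 CPM with shNT. ALDH1A1 was the largest part, averaging 9821 CPM with shLITATS1-1 and 3521 CPM with shLITATS1-2, against 6359 CPM with shNT. The markers did not move together with shLITATS1-2: 6 were called lower, KRT7 and KRT19 higher, and EPCAM was not called. Of all genes tested, 28.9% were lower and 27.8% higher with that hairpin. The part of these shifts in the results was not tested. EPCAM averaged only 4.91 CPM with shLITATS1-1 and 4.50 CPM with shLITATS1-2, against 4.22 CPM with shNT. Among blood cell markers, CD3E was at 0 in all libraries and PTPRC and HBB averaged no more than 0.0351 CPM in any group. CD14, a monocyte marker, averaged 2.49 ± 0.646 CPM with shLITATS1-1 and 5.36 ± 0.584 CPM with shLITATS1-2, against 1.40 ± 0.213 CPM with shNT (SD, n = 3 each), and its part in the results was not tested. The 4 endothelial markers summed to 0.105 to 0.527 CPM with shLITATS1-1 and 0.145 to 0.721 CPM with shLITATS1-2, against 0.410 to 0.665 CPM with shNT. The 5 fibroblast markers summed to 1.84 to 2.47 CPM with shLITATS1-1 and 1.35 to 1.88 CPM with shLITATS1-2, against 2.56 to 2.98 CPM with shNT. Among them THY1 averaged 1.12 CPM with shLITATS1-1 and 0.931 CPM with shLITATS1-2, against 2.29 CPM with shNT. The 4 type II markers summed to 1.05 to 1.53 CPM with shLITATS1-1 and 0.529 to 0.963 CPM with shLITATS1-2, against 0.205 to 0.922 CPM with shNT, and NAPSA among them averaged 1.14 CPM with shLITATS1-1 and 0.659 CPM with shLITATS1-2, against 0.530 CPM with shNT. THY1 was called lower with both hairpins and NAPSA higher with shLITATS1-1, and their part in the results was not tested. The defining endothelial, fibroblast and surfactant genes CDH5, COL1A2 and SFTPC were at or near 0, with 0.0527, 0.0351 and 0 CPM with shLITATS1-1, 0.0160, 0.0322 and 0.0803 CPM with shLITATS1-2, and 0, 0 and 0.103 CPM with shNT. Mitochondrial genes took 10.2% of gene fragments with shLITATS1-1 and 7.97% with shLITATS1-2, against 12.2% with shNT, and the part of this in the results was not tested either. The counts are of bulk RNA, so fewer cells of a kind and less RNA per cell cannot be told apart.

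The order of the 39 genes is given per length of exon for shNT. HSPA5 at 273 ± 1.32 and CALR at 271 ± 4.98 CPM per kb (SD, n = 3) headed the order and overlapped each other, followed by CANX at 236 ± 9.31 and HSP90B1 at 212 ± 4.51 CPM per kb. The isomerases PDIA4 (135 ± 2.24) and P4HB (131 ± 1.13 CPM per kb) came next and did not overlap by library. Among the sensors, ATF6 stood at 8.30 ± 0.134 CPM per kb, EIF2AK3, which encodes PERK, at 3.36 ± 0.0879 and ERN1, which encodes IRE1, at 2.08 ± 0.0796, and these 3 did not overlap. From rank 18 to 21, SEL1L, ERO1A, SPCS1 and SSR2 lay between 16.8 and 19.3 CPM per kb in all shNT libraries, and each overlapped its neighbour in the order. DERL3 was the lowest, with 0.158 ± 0.0913 CPM with shLITATS1-1, 0.161 ± 0.0733 CPM with shLITATS1-2 and 0.171 ± 0.0293 CPM with shNT. It was the only one of the 39 with too few counts to be tested, and 77% of its annotated exon bases overlap SMARCB1 on the other strand.

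**Figure D1:**
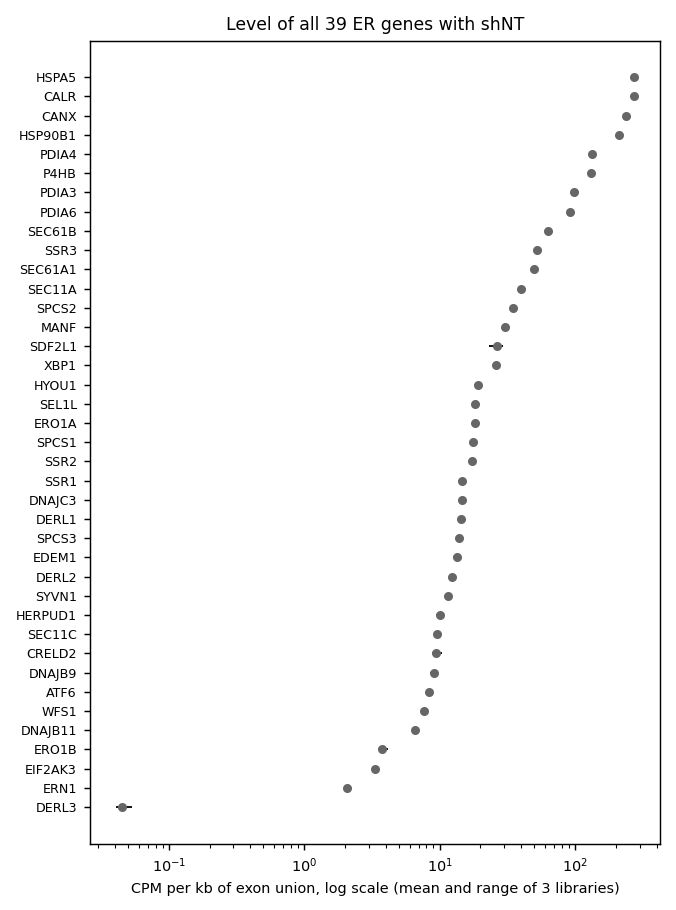
Level of each of the 39 genes in the 3 shNT libraries, in CPM per kb of annotated exon on a log axis, with points for the mean and bars for the lowest and highest library. HSPA5 and CALR lie together at the top, at 273 and 271 CPM per kb, and DERL3 lies apart at the bottom, at 0.0450 CPM per kb.

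The 38 tested genes changed by different amounts with the 2 hairpins, and they did not move as a block. With shLITATS1-1, 19 were higher and 5 lower than with shNT, and 14 did not pass the quasi-likelihood test of edgeR, with Benjamini-Hochberg adjustment over 15500 genes and a threshold of 0.05. Called genes thus made up 63.2%, beside 61.0% of all genes tested (30.5% higher and 30.5% lower), a share near the background. With shLITATS1-2, 22 of the 37 genes other than SPCS3 were higher and 10 lower, and 5 did not pass. This came to 86.5%, beside 56.7% of all genes tested, 27.8% higher and 28.9% lower. Counted with SPCS3, which the choice of genes placed among the lower ones, 11 of 38 were lower. Because every one of the 38 averaged 4 or more on the log2 CPM scale, the shares among the 8261 genes that did so stand closer to like with like. They were 72.7% with shLITATS1-1 (33.9% higher and 38.8% lower) and 70.3% with shLITATS1-2 (31.2% higher and 39.1% lower). Between the hairpins the share was 71.6% (36.0% higher and 35.7% lower). The 63.2% called with shLITATS1-1 lay below the share of genes of like level.

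Most of the changes stayed under 0.5 in size on the log2 scale. The 38 genes had a median absolute change of 0.11 with shLITATS1-1 and 0.28 with shLITATS1-2 (0.27 without SPCS3). Over all genes tested it was 0.28 and 0.25, and among those averaging 4 or more in log2 CPM it was 0.22 and 0.20. The median signed change of the 38 was 0.067 with shLITATS1-1 and 0.15 with shLITATS1-2 (0.19 without SPCS3). It was -0.0070 and -0.0040 over all genes, and -0.021 and -0.031 among those averaging 4 or more. One gene, HERPUD1, moved by at least 0.5 on the log2 scale with shLITATS1-1, and 9 besides SPCS3 did with shLITATS1-2. Directly between the hairpins, 14 of the 37 genes other than SPCS3 were higher and 13 lower with shLITATS1-2 than with shLITATS1-1. This was 73.0% called, beside 60.9% of all genes tested (30.7% higher and 30.2% lower). It was near the 71.6% of those averaging 4 or more in log2 CPM. All comparisons share libraries, so the calls with one hairpin are no independent check on those with the other. Scaling by library size alone shifted the median of all genes by 0.11 for shLITATS1-2 against shNT and by 0.13 between the hairpins. The split of calls, here counted with SPCS3, then became 25 higher and 7 lower for shLITATS1-2 against shNT and 21 higher and 10 lower between the hairpins, and over all genes it became 6058 to 2967 in place of 4302 to 4485, and 6912 to 3293 in place of 4755 to 4684. An offset for GC content gave 17 higher and 11 lower between the hairpins, and one for gene length gave 20 higher and 2 lower for shLITATS1-1.

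**Figure D2:**
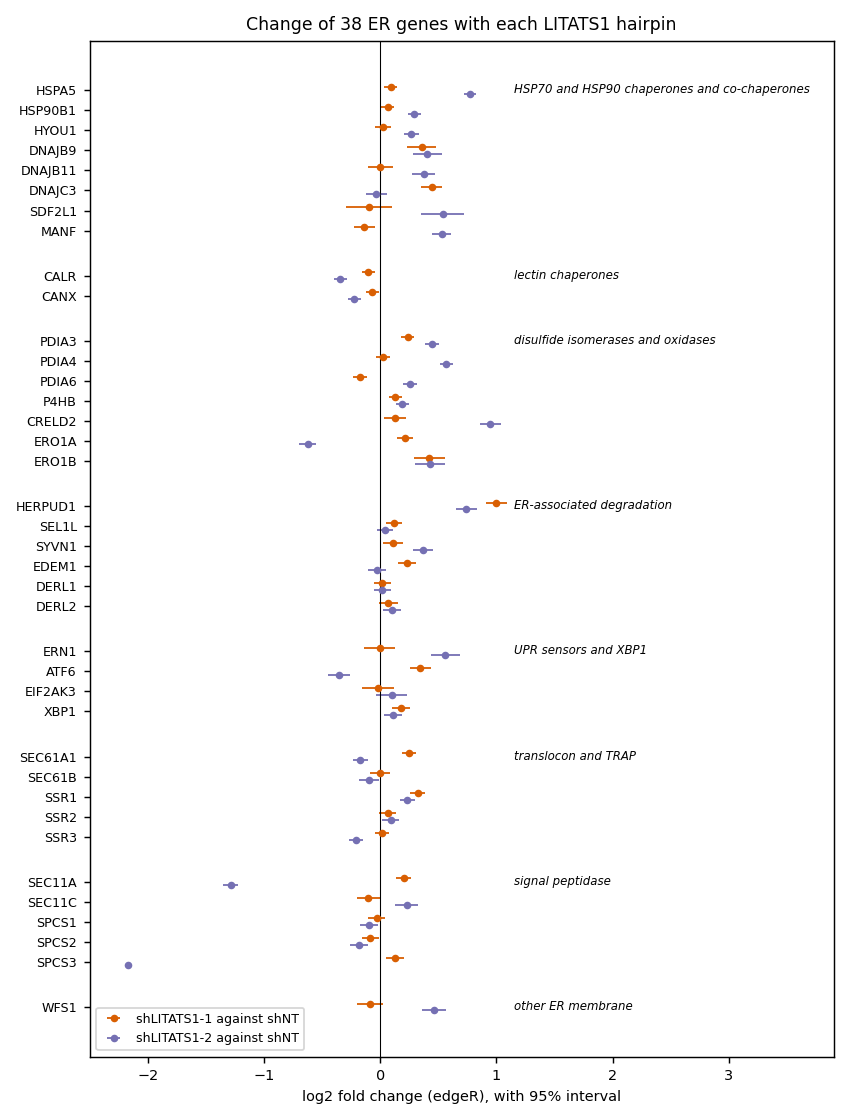
Log2 fold change of the 38 tested genes with shLITATS1-1 (orange) and shLITATS1-2 (purple) against shNT, as points with 95% intervals from the edgeR fit, grouped by role; SPCS3 with shLITATS1-2, a value used to choose the gene, has no interval. SPCS3 and SEC11A lie far to the left with shLITATS1-2, at -2.17 and -1.29, and HERPUD1 lies farthest to the right with shLITATS1-1, at 1.00.

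The HSP70 and HSP90 chaperones of the ER and their co-chaperones were higher with shLITATS1-2 in 7 of 8 genes. With shLITATS1-1 they had 4 higher, 1 lower and 3 not called. The share called was 87.5% with shLITATS1-2, beside 56.7% of all genes tested and 70.3% of those averaging 4 or more in log2 CPM. With shLITATS1-1 it was 62.5%, a share near the 61.0% of all genes and below the 72.7% of those averaging 4 or more. HSPA5 (chromosome 9, 125234853 to 125241330 on the minus strand of GRCh38) encodes BiP, the main ER chaperone and a repressor of the 3 UPR sensors. It had 1125, 1131 and 1142 CPM with shLITATS1-1 and 1794, 1834 and 1835 CPM with shLITATS1-2, against 1070.2, 1059.9 and 1065.4 CPM with shNT. Every shLITATS1-2 library stood far above the rest, and the shLITATS1-1 libraries stood only a little above shNT without overlap. The log2 fold change was 0.088 (SE 0.027) with shLITATS1-1 and 0.77 (SE 0.027) with shLITATS1-2 (edgeR quasi-likelihood test, Benjamini-Hochberg adjusted p = 0.00344 and 1.78e-37), and 0.69 (SE 0.027) between the hairpins. HSPA5 alone made up most of the gain in summed level with shLITATS1-2. The 39 genes together came to 9391 ± 46.5 CPM with shLITATS1-1 and 10061 ± 49.1 CPM with shLITATS1-2, against 8985 ± 82.7 CPM with shNT (SD, n = 3 each). Without HSPA5 the sums were 8258 ± 38.2 CPM with shLITATS1-1 and 8240.2 ± 26.0 CPM with shLITATS1-2, against 7919.7 ± 77.5 CPM with shNT, and the libraries of the 2 LITATS1 hairpins then overlapped.

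MANF, a secreted partner of BiP, had 66.1, 63.8 and 68.4 CPM with shLITATS1-1 and 112, 102 and 100.5 CPM (mean 105 ± 6.09) with shLITATS1-2, against 71.0, 72.5 and 74.5 CPM with shNT. SDF2L1, a part of the BiP and ERdj3 chaperone complex, had 29.2, 25.0 and 27.4 CPM with shLITATS1-1 and 48.1, 38.95 and 40.0 CPM with shLITATS1-2, against 25.6, 32.3 and 29.5 CPM with shNT. Both were thus highest with shLITATS1-2 in each library. MANF rose by 0.53 (SE 0.041) with shLITATS1-2 and fell by 0.14 (SE 0.044) with shLITATS1-1, a call lost without shLITATS1-1 replicate 2 (-0.11) and with the length offset (-0.065). SDF2L1 rose by 0.54 (SE 0.087) with shLITATS1-2 and differed by -0.099 (SE 0.094) with shLITATS1-1, which did not pass.

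The HSP90 of the ER, HSP90B1, rose by 0.29 (SE 0.027) with shLITATS1-2, and its change of 0.065 (SE 0.028) with shLITATS1-1 lost its call without any 1 of 5 libraries, with values of 0.047 to 0.065. Those were shLITATS1-1 replicates 2 and 3, shLITATS1-2 replicate 2 and shNT replicates 2 and 3. The call of HSP90B1 was also lost with the GC offset (0.030, adjusted p = 0.253 by edgeR), with library-size scaling (0.047) and with no filter (0.058). HYOU1, a large HSP70 relative that exchanges the nucleotide of BiP, rose by 0.27 (SE 0.034), and DNAJB11, the J protein ERdj3, by 0.37 (SE 0.050) with shLITATS1-2, while with shLITATS1-1 they gave 0.028 and 0.0017 and did not pass. The other J proteins of the group differed from this. DNAJB9 (ERdj4) rose by 0.36 (SE 0.062) with shLITATS1-1 and 0.41 (SE 0.061) with shLITATS1-2. DNAJC3, which encodes p58IPK, had 108, 112 and 112 CPM with shLITATS1-1 and 72.4, 78.7 and 87.0 CPM with shLITATS1-2, against 84.8, 81.2 and 77.8 CPM with shNT. It rose by 0.44 (SE 0.044) with shLITATS1-1 and gave -0.034 (95% interval -0.13 to 0.057) with shLITATS1-2, which did not pass. The hairpins differed by -0.48 (SE 0.044), which was called.

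With shLITATS1-2 both lectin chaperones were lower while 7 of the 8 HSP70 and HSP90 chaperone and co-chaperone genes were higher. With shLITATS1-1 both lectin chaperones were lower too, as was MANF of those 8 genes. Of all genes tested, 28.9% were lower with shLITATS1-2 and 30.5% with shLITATS1-1. CALR, which encodes calreticulin, had 694, 675 and 684 CPM with shLITATS1-1 and 583, 579 and 574 CPM with shLITATS1-2, against 719, 738 and 746 CPM with shNT. CANX, which encodes its membrane-bound relative calnexin, had 1389.9, 1417 and 1407 CPM with shLITATS1-1 and 1227, 1267 and 1291 CPM with shLITATS1-2, against 1539, 1427 and 1456 CPM with shNT. In both genes the shLITATS1-2 libraries were the lowest and the shNT libraries the highest, without overlap by library. CALR fell by 0.34 (SE 0.028) and CANX by 0.22 (SE 0.028) with shLITATS1-2. With shLITATS1-1 the changes were -0.10 (SE 0.028) and -0.069 (SE 0.028). The first lost its call with the length offset (-0.041), and the second without shLITATS1-1 replicate 1 (-0.061), shLITATS1-1 replicate 3 (-0.071) or shNT replicate 1 (-0.033), with DESeq2 (-0.063) and with a filter of 50 counts (-0.058).

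The RefSeq promoter windows of GRCh38.p14, each 250 bases before to 50 bases after a start site, matched 35 of the 39 genes and were searched on both strands for the ER stress response element, spelled CCAAT, any 9 bases, CCACG. It occurred in 8 of the 35 genes (22.9%), beside 25 of 27305 genes with a window (0.0916%). Its parts, which overlap it, were common: CCACG was present in 77.1% of the 35 and 42.1% of all genes, and CCAAT in 82.9% and 39.7%. The 9 sites are shown because genes that carry one moved in both directions. Each is read on the strand that spells the element, with the fixed bases in capitals.
HSPA5 (chr9:125241391-125241409, minus): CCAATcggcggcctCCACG
HSP90B1, first (chr12:103930216-103930234, plus): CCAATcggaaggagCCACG
HSP90B1, second (chr12:103930321-103930339, minus): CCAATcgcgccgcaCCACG
CRELD2 (chr22:49918554-49918572, minus): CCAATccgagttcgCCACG
PDIA6 (chr2:10812853-10812871, minus): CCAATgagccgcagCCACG
ERO1B (chr1:236282183-236282201, plus): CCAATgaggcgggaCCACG
XBP1 (chr22:28800603-28800621, minus): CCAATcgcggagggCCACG
CALR (chr19:12938384-12938402, minus): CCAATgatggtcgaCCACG
CANX (chr5:179698778-179698796, plus): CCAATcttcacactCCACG

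With shLITATS1-2, HSPA5, HSP90B1, CRELD2, PDIA6, ERO1B and XBP1 were higher and CALR and CANX lower than with shNT, that is 6 higher and 2 lower among the 8 carriers. The 27 other genes with a window had 15 higher, 8 lower (SPCS3 among them) and 4 not called. Their median log2 fold change was 0.10, against 0.27 for the carriers. The 0.10 counts SPCS3 (-2.17), a value used to choose the gene, so no difference is drawn from these medians. With shLITATS1-1 the carriers had 5 higher and 3 lower and a median of 0.077, and the 27 others 13 higher, 2 lower and 12 not called with a median of 0.069. Of all genes tested, 27.8% were higher and 28.9% lower with shLITATS1-2, and 30.5% higher and 30.5% lower with shLITATS1-1. With CANX set aside, the nearest sites to the start were those of XBP1, PDIA6, CRELD2 and HSPA5, 52 to 86 bases before it. Distances were counted from the base of the site farthest from the start. CANX has 4 windows, and its site lies 189 bases before the start of 1 of them but much closer to the start of another. The 250 bases before the start of HSPA5 and CRELD2, which were higher with shLITATS1-2, and of CALR, which was lower, follow in the direction of the gene, with the fixed bases of the element in capitals. In CRELD2 and CALR they read as CGTGG and ATTGG because the element lies on the other strand.
HSPA5 (chr9:125241344-125241593, minus): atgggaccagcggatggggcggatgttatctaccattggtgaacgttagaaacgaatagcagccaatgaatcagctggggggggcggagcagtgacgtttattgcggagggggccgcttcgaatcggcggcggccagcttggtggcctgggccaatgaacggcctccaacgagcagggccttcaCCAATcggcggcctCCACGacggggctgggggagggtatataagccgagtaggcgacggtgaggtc
CRELD2 (chr22:49918384-49918633, plus): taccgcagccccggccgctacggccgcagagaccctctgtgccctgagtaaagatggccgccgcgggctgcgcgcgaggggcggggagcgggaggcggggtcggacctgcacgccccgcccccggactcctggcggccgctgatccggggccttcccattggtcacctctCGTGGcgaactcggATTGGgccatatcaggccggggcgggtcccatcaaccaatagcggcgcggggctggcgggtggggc
CALR (chr19:12938359-12938608, plus): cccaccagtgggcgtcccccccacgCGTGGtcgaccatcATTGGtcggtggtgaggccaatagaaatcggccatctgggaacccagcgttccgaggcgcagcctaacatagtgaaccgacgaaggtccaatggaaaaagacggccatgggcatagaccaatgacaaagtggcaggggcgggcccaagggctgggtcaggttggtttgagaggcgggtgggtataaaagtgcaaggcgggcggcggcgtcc

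Of the 7 disulfide isomerases and oxidases, 6 were higher and 1 lower with shLITATS1-2, and 5 were higher and 1 lower with shLITATS1-1. These counts came to 100.0% and 85.7% called, beside 56.7% and 61.0% of all genes tested. Among genes averaging 4 or more in log2 CPM the shares were 70.3% and 72.7%. Of all genes tested, 27.8% were higher and 28.9% lower with shLITATS1-2, and 30.5% higher and 30.5% lower with shLITATS1-1. CRELD2 (chromosome 22, 49918167 to 49927540 on the plus strand), an isomerase-like protein that is a known UPR target, had 52.2, 52.8 and 54.8 CPM with shLITATS1-1 and 96.4, 93.3 and 91.8 CPM with shLITATS1-2, against 47.2, 53.4 and 45.5 CPM with shNT. The shLITATS1-2 libraries lay far above the others, and the shLITATS1-1 and shNT libraries overlapped. CRELD2 rose by 0.94 (SE 0.045) with shLITATS1-2, the greatest increase of the 38 genes with that hairpin (edgeR quasi-likelihood test, Benjamini-Hochberg adjusted p = 1.6e-29). Its change of 0.13 (SE 0.049) with shLITATS1-1 lost its call without shLITATS1-1 replicate 3 (0.11), shNT replicate 1 (0.11) or shNT replicate 3 (0.080). PDIA4 had 452, 439.6 and 453 CPM with shLITATS1-1 and 653, 655 and 655 CPM with shLITATS1-2, against 433, 448 and 442 CPM with shNT. This isomerase rose by 0.57 (SE 0.028) with shLITATS1-2 and gave 0.023 (95% interval -0.034 to 0.081) with shLITATS1-1, which did not pass.

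PDIA3, the isomerase that works with calnexin and calreticulin, rose by 0.24 (SE 0.029) with shLITATS1-1 and 0.44 (SE 0.029) with shLITATS1-2, against the direction of both lectin partners. P4HB, the founding protein disulfide isomerase and a subunit of prolyl 4-hydroxylase, rose by 0.13 (SE 0.028) with shLITATS1-1 and 0.19 (SE 0.028) with shLITATS1-2. PDIA6 fell by 0.18 (SE 0.030) with shLITATS1-1 and rose by 0.25 (SE 0.029) with shLITATS1-2, and 25.2% of its exon bases overlap ATP6V1C2 on the other strand.

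ERO1A and ERO1B encode the oxidases that recharge the isomerases, and they diverged with shLITATS1-2. ERO1A had 158, 159 and 158 CPM with shLITATS1-1 and 86.7, 89.1 and 90.5 CPM with shLITATS1-2, against 142, 137 and 132 CPM with shNT. ERO1B had 26.2, 27.7 and 27.1 CPM with shLITATS1-1 and 25.0, 28.8 and 27.6 CPM with shLITATS1-2, against 22.2, 19.4 and 18.9 CPM with shNT. The 3 groups of ERO1A libraries did not overlap, with shLITATS1-1 highest and shLITATS1-2 lowest, whereas ERO1B was above shNT with both hairpins. ERO1A rose by 0.21 (SE 0.035) with shLITATS1-1 and fell by 0.62 (SE 0.036) with shLITATS1-2. ERO1B rose by 0.42 (SE 0.067) with shLITATS1-1 and 0.43 (SE 0.066) with shLITATS1-2, and the hairpins differed by 0.0065 (95% interval -0.12 to 0.13). Per length, ERO1B made up 19.4% ± 0.383 of both oxidases with shLITATS1-1 and 30.1% ± 1.20 with shLITATS1-2, against 17.2% ± 0.792 with shNT (SD, n = 3 each).

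**Figure D3:**
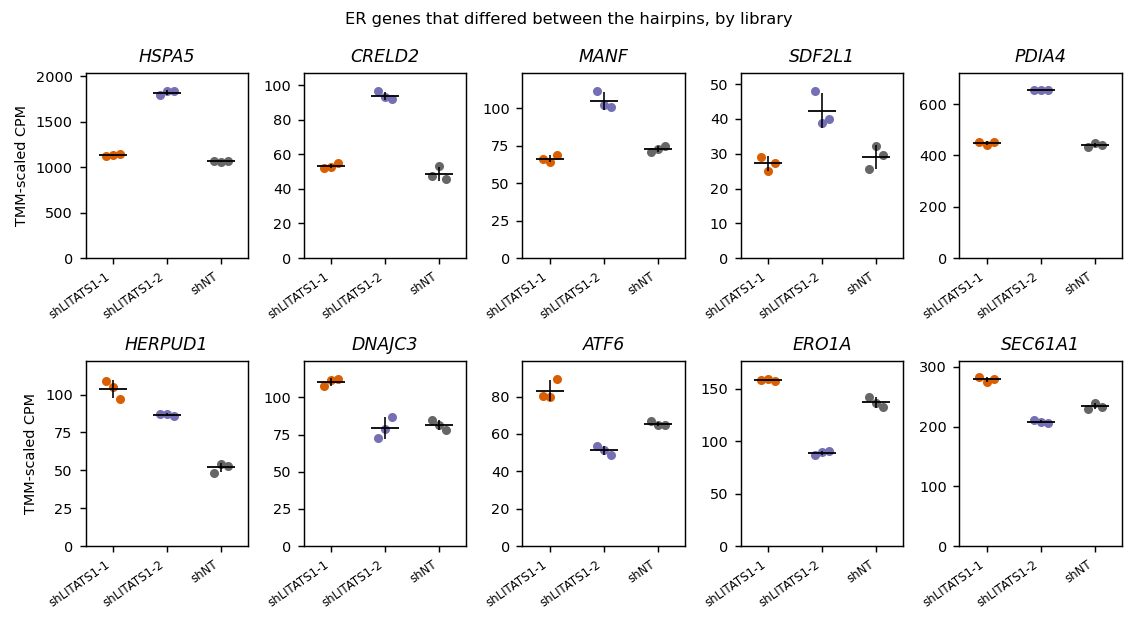
TMM-scaled CPM of 10 genes in each of the 9 libraries, as points, with black bars for the mean and SD of 3 libraries, for shLITATS1-1, shLITATS1-2 and shNT from left to right on axes that start at 0. HSPA5, CRELD2, MANF, SDF2L1 and PDIA4 are highest with shLITATS1-2, HERPUD1 is above shNT with both hairpins, and DNAJC3, ATF6, ERO1A and SEC61A1 are highest with shLITATS1-1.

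Of 6 tested genes of ER-associated degradation, 4 were higher with shLITATS1-1 and 3 with shLITATS1-2, and the rest did not pass. With shLITATS1-1 this was 66.7% called, beside 61.0% of all genes tested and 72.7% of those averaging 4 or more in log2 CPM. With shLITATS1-2 the 3 of 6 lay below the 56.7% of all genes and the 70.3% of those averaging 4 or more. Of all genes tested, 30.5% were higher with shLITATS1-1 and 27.8% with shLITATS1-2. HERPUD1 (chromosome 16, 56932048 to 56944863 on the plus strand) had the largest changes among the 6 degradation genes. It encodes a membrane protein that organises the ubiquitin ligase around HRD1. HERPUD1 had 109, 105 and 97.0 CPM with shLITATS1-1 and 87.1, 87.3 and 85.9 CPM with shLITATS1-2, against 48.5, 54.1 and 53.2 CPM with shNT. All 6 LITATS1 hairpin libraries lay above all shNT libraries, and those of shLITATS1-1 above those of shLITATS1-2. Its log2 fold change was 1.00 (SE 0.044) with shLITATS1-1 and 0.74 (SE 0.044) with shLITATS1-2 (edgeR quasi-likelihood test, Benjamini-Hochberg adjusted p = 2.12e-31 and 5.13e-24), and -0.26 (SE 0.041) between the hairpins. It was the greatest increase of the 38 genes with shLITATS1-1.

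The HRD1 ligase itself, encoded by SYVN1, rose by 0.37 (SE 0.042) with shLITATS1-2, and its change of 0.11 (SE 0.043) with shLITATS1-1 lost its call without shLITATS1-1 replicate 1 (0.067) or shNT replicate 1 (0.089). Its partner SEL1L rose by 0.12 (SE 0.034) with shLITATS1-1 and gave 0.045 (95% interval -0.024 to 0.11) with shLITATS1-2. Between the hairpins SEL1L gave -0.076 (SE 0.034), which stood at the threshold and turned to 0.056 with library-size scaling and 0.016 with the GC offset, and it lost its call with the length offset (-0.036), with DESeq2 (-0.081) and without any 1 of shLITATS1-1 replicates 2 and 3 and shLITATS1-2 replicates 1 and 2 (-0.076 to -0.051). EDEM1, a lectin that marks misfolded glycoproteins, rose by 0.23 (SE 0.040) with shLITATS1-1, gave -0.027 with shLITATS1-2 and differed between the hairpins by -0.26 (SE 0.039).

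The derlins, which form part of the channel for export to the cytosol, gave small values. DERL1 gave 0.017 (95% interval -0.058 to 0.092) with shLITATS1-1 and 0.018 (95% interval -0.056 to 0.092) with shLITATS1-2, and 0.00093 (95% interval -0.073 to 0.075) between the hairpins. DERL2 gave 0.069 (SE 0.040) with shLITATS1-1, which did not pass. With shLITATS1-2 DERL2 gave 0.10 (SE 0.039), a call lost without shLITATS1-2 replicate 3 (0.090) or shNT replicate 2 (0.091).

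Of the 3 UPR sensors, ATF6 went opposite ways with the hairpins, ERN1 was higher with shLITATS1-2 and EIF2AK3 was not called. ATF6 encodes the membrane-bound factor that is cut in the Golgi and then acts on ER stress response elements. It had 80.3, 79.5 and 89.6 CPM with shLITATS1-1 and 53.5, 51.2 and 48.7 CPM with shLITATS1-2, against 66.7, 64.7 and 65.0 CPM with shNT. The 3 groups did not overlap, and ATF6 rose by 0.34 (SE 0.044) with shLITATS1-1 and fell by 0.36 (SE 0.046) with shLITATS1-2, so the hairpins differed by -0.70 (SE 0.045) (edgeR quasi-likelihood test, Benjamini-Hochberg adjusted p = 1.18e-22). ERN1 had 20.9, 24.6 and 22.1 CPM with shLITATS1-1 and 33.3, 31.9 and 34.9 CPM with shLITATS1-2, against 22.6, 21.8 and 23.5 CPM with shNT. ERN1 thus rose by 0.56 (SE 0.061) with shLITATS1-2 and gave -0.0057 (95% interval -0.14 to 0.13) with shLITATS1-1. EIF2AK3 did not pass in any comparison, with -0.019 (95% interval -0.16 to 0.12) for shLITATS1-1 and 0.097 (95% interval -0.038 to 0.23) for shLITATS1-2.

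XBP1, whose RNA is spliced by IRE1 into the form that encodes an active factor, rose by 0.18 (SE 0.040) with shLITATS1-1. With shLITATS1-2 it gave 0.11 (SE 0.040), a call lost without shLITATS1-2 replicate 2 (0.086) or shNT replicate 1 (0.095). Counts per gene do not separate its spliced from its unspliced form, and the cleavage of ATF6 and the phosphorylation of the sensors are not measured by RNA. WFS1, a membrane protein of the ER that is mutated in Wolfram syndrome, rose by 0.46 (SE 0.053) with shLITATS1-2 and gave -0.086 (SE 0.057) with shLITATS1-1, which did not pass.

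At the translocon the 5 genes had 2 higher and 3 not called with shLITATS1-1, and 2 higher and 3 lower with shLITATS1-2. These counts came to 40.0% and 100.0% called, beside 61.0% and 56.7% of all genes tested. Among genes averaging 4 or more in log2 CPM the shares were 72.7% and 70.3%. Of all genes tested, 30.5% were higher with shLITATS1-1, and 27.8% were higher and 28.9% lower with shLITATS1-2. SEC61A1, the pore of the channel, had 283, 275 and 279.9 CPM with shLITATS1-1 and 211, 208 and 206 CPM with shLITATS1-2, against 230.2, 240.4 and 233.6 CPM with shNT. The groups did not overlap, and SEC61A1 rose by 0.25 (SE 0.031) with shLITATS1-1 and fell by 0.17 (SE 0.031) with shLITATS1-2. With library-size scaling its change with shLITATS1-2 was -0.058 and did not pass. SEC61B, a small subunit of the channel, gave -0.095 (SE 0.042) with shLITATS1-2 (edgeR quasi-likelihood test, Benjamini-Hochberg adjusted p = 0.0484). It turned to 0.018 with library-size scaling, and it lost its call without any 1 of shLITATS1-1 replicate 3, shLITATS1-2 replicates 1 and 3 and shNT replicates 2 and 3 (-0.10 to -0.062). That call was also lost with DESeq2 (-0.093), its size factors, the length offset (-0.081) and a filter of 50 counts (-0.077) or none. Neither the replicate block nor the fit of only the 6 libraries kept it.

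The TRAP subunits did not move together with shLITATS1-2. SSR1 rose by 0.32 (SE 0.033) with shLITATS1-1 and 0.23 (SE 0.033) with shLITATS1-2. Its difference of -0.089 (SE 0.032) between the hairpins lost its call without shLITATS1-2 replicate 2 (-0.078) or replicate 3 (-0.080) and turned to 0.042 with library-size scaling. It was -0.0091 with the GC offset (adjusted p = 0.798 by edgeR) and -0.045 with the length offset, and neither passed. SSR3 fell by 0.21 (SE 0.031) with shLITATS1-2 and gave 0.014 with shLITATS1-1, and the hairpins differed by -0.22 (SE 0.031). SSR2 gave 0.064 with shLITATS1-1 and 0.089 (SE 0.037) with shLITATS1-2, and the second call was lost without shLITATS1-2 replicate 1 (0.071), shLITATS1-2 replicate 2 (0.081) or shNT replicate 1 (0.079).

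With shLITATS1-2, signal peptidase held the largest change among the genes other than SPCS3, that of SEC11A. With shLITATS1-1 its 5 genes changed by only -0.10 to 0.20 on the log2 scale. The enzyme is a membrane complex with a catalytic subunit, SEC11A or its relative SEC11C, and the accessory subunits SPCS1, SPCS2 and SPCS3, of which SPCS3 is needed for activity in yeast. SPCS3 (chromosome 4, 176319964 to 176332245 on the plus strand) had 102, 106 and 102 CPM with shLITATS1-1 and 20.3, 21.3 and 21.4 CPM with shLITATS1-2, against 101, 90.2 and 93.2 CPM with shNT. SEC11A (chromosome 15, 84669538 to 84716716 on the minus strand) had 271, 262 and 264 CPM with shLITATS1-1 and 95.4, 92.4 and 96.2 CPM with shLITATS1-2, against 230.4, 226 and 237 CPM with shNT. In both genes the 3 shLITATS1-2 libraries lay far below all 6 others.

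With shLITATS1-2, SPCS3 was at 22.2% of its shNT level, a log2 fold change of -2.17. SEC11A fell by 1.29 (SE 0.034) with shLITATS1-2, to 40.9% of its shNT level (edgeR quasi-likelihood test, Benjamini-Hochberg adjusted p = 9e-45). SEC11A was the only 1 of the 37 genes other than SPCS3 called at least 2-fold lower with that hairpin, a share near the 2.17% of all genes tested, and none of the 37 was called 2-fold higher. With shLITATS1-1 the same genes stood above shNT. SEC11A rose by 0.20 (SE 0.031), and SPCS3 gave 0.13 (SE 0.040), a call lost without shNT replicate 2 (0.093). SEC11A therefore differed between the hairpins by -1.49 (SE 0.034) (edgeR quasi-likelihood test, Benjamini-Hochberg adjusted p = 5.37e-49).

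The other subunits changed little. SEC11C had 39.5, 39.04 and 42.7 CPM with shLITATS1-1 and 50.7, 50.2 and 51.5 CPM with shLITATS1-2, against 42.3, 42.3 and 45.5 CPM with shNT, and it rose by 0.23 (SE 0.049) with shLITATS1-2, opposite to SEC11A. Per length, SEC11A made up 83.8% ± 0.720 of the 2 catalytic subunits with shLITATS1-1 and 59.4% ± 0.270 with shLITATS1-2, against 80.7% ± 0.348 with shNT (SD, n = 3 each). The level of SPCS3 per length was 46.6% ± 2.13 of that of SPCS2 with shLITATS1-1 and 10.1% ± 0.468 with shLITATS1-2, against 40.1% ± 2.81 with shNT. The 5 genes summed to 599 ± 6.48 CPM with shLITATS1-1 and 346 ± 0.759 CPM with shLITATS1-2, against 567 ± 11.9 CPM with shNT. SPCS3, chosen with its fall known, averaged 103.5 CPM of this with shLITATS1-1 and 21.0 CPM with shLITATS1-2, against 94.7 CPM with shNT. Part of the lower sum with shLITATS1-2 was thus set by the choice of genes.

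SPCS2 fell by 0.18 (SE 0.038) with shLITATS1-2, a call lost with library-size scaling (-0.068). With shLITATS1-1 it gave -0.086 (SE 0.038), a call lost without any 1 of shLITATS1-1 replicates 2 and 3 and shNT replicates 2 and 3 (-0.093 to -0.070). It was -0.033 with the length offset (adjusted p = 0.436 by edgeR) and -0.079 with DESeq2, and neither passed. Between the hairpins SPCS2 gave -0.095 (SE 0.038), lost without shLITATS1-1 replicate 1 (-0.076) or shLITATS1-2 replicate 3 (-0.076) and turned to 0.036 with library-size scaling and 0.0028 with the GC offset. SPCS1 gave -0.031 with shLITATS1-1 and -0.097 (SE 0.038) with shLITATS1-2. The second call was lost without shLITATS1-2 replicate 1 (-0.094), shLITATS1-2 replicate 3 (-0.094) or shNT replicate 3 (-0.079), and it turned to 0.016 with library-size scaling. Exons of NEK4 on the other strand cover 50.7% of the annotated exon bases of SPCS1, and the strand setting of the counting was not stated in the sources used.

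**Figure D4:**
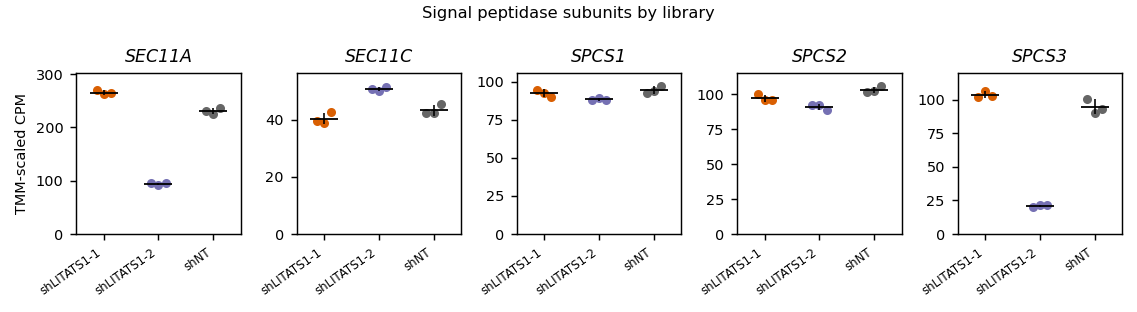
TMM-scaled CPM of the 5 signal peptidase genes in each library, as points, with black bars for the mean and SD of 3 libraries, for shLITATS1-1, shLITATS1-2 and shNT from left to right on axes that start at 0. SEC11A and SPCS3 lie far lower with shLITATS1-2 than in the other groups, at means of 94.7 and 21.0 CPM, while SEC11C, SPCS1 and SPCS2 stay close to their shNT levels.

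Neighbouring steps of the secretory pathway were counted from lists chosen with earlier results of these data known. The shares called in each list are to be read beside the 61.0% of all genes tested with shLITATS1-1 and the 56.7% with shLITATS1-2, or beside 72.7% and 70.3% among genes that averaged 4 or more in log2 CPM. Of 8 further translocon genes, 5 were higher and 1 lower with shLITATS1-1, and 3 higher and 5 lower with shLITATS1-2, which came to 75.0% and 100.0% called. TRAM1, which helps nascent chains into the channel, averaged 1424 ± 24.4 CPM with shLITATS1-1 and 402 ± 17.6 CPM with shLITATS1-2, against 767 ± 24.1 CPM with shNT (SD, n = 3 each). It rose by 0.89 (SE 0.029) with shLITATS1-1 and fell by 0.93 (SE 0.030) with shLITATS1-2, and its paralog TRAM2 rose by 0.24 (SE 0.046) with shLITATS1-1 and fell by 0.36 (SE 0.048) with shLITATS1-2. The signal recognition particle, which brings ribosomes to the ER, and its receptor had 3 higher and 3 lower of 8 with shLITATS1-1, and 2 higher and 4 lower with shLITATS1-2, or 75.0% called with either. SRP14 rose by 0.58 (SE 0.034) with shLITATS1-1 and 0.48 (SE 0.034) with shLITATS1-2.

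The oligosaccharyltransferase, which attaches N-linked sugars to entering chains, had 5 higher and 2 lower of 12 with shLITATS1-1, and 5 higher and 4 lower with shLITATS1-2, or 58.3% and 75.0% called. OSTC rose by 0.78 (SE 0.044) with shLITATS1-1 and 0.73 (SE 0.043) with shLITATS1-2, while RPN1 fell by 0.52 (SE 0.031) with shLITATS1-2 and gave -0.046 with shLITATS1-1. The ER membrane complex, which inserts some membrane proteins, had 1 higher and 3 lower of 9 with shLITATS1-1, and 3 higher and 1 lower with shLITATS1-2, or 44.4% called with either, below all genes. No change in it exceeded 0.33 in size with either hairpin. Of 17 genes for ER export in COPII vesicles, 7 were higher and 3 lower with shLITATS1-1, and 4 higher and 6 lower with shLITATS1-2. This was 58.8% called with either hairpin, a share near that of all genes. TMED10, a cargo receptor of those vesicles, rose by 0.31 (SE 0.030) with shLITATS1-1 and fell by 0.45 (SE 0.031) with shLITATS1-2.

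Of 29 other folding genes tested, 16 were higher and 4 lower with shLITATS1-1, and 14 higher and 7 lower with shLITATS1-2, which made 69.0% and 72.4% called. SERPINH1, the collagen chaperone HSP47, rose by 0.17 (SE 0.036) with shLITATS1-1 and 0.89 (SE 0.035) with shLITATS1-2. The prolyl isomerase FKBP14 rose by 0.41 (SE 0.060) with shLITATS1-1 and fell by 0.96 (SE 0.070) with shLITATS1-2. Of 20 other degradation genes, 8 were higher and 8 lower with shLITATS1-1, and 7 higher and 8 lower with shLITATS1-2, which made 80.0% and 75.0% called. HERPUD2, the paralog of HERPUD1, averaged 28.0 ± 1.63 CPM with shLITATS1-1 and 14.1 ± 1.05 CPM with shLITATS1-2, against 30.8 ± 0.648 CPM with shNT. It fell by 1.12 (SE 0.067) with shLITATS1-2, so the paralogs differed in direction with that hairpin, and with shLITATS1-1 it gave -0.13 (SE 0.060), a call lost without any 1 of shLITATS1-1 replicates 1 and 2 and the 3 shNT replicates (-0.15 to -0.092).

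The PERK and ATF4 arm of the stress response, which acts through translation and amino acid genes, had 3 higher and 9 lower of 13 with shLITATS1-1, and 3 higher and 4 lower with shLITATS1-2. The 9 lower genes made up 69.2% of the list, beside 30.5% of all genes tested, and with shLITATS1-2 the 4 lower genes made up 30.8%, beside 28.9%. TRIB3, a pseudokinase induced by ATF4, averaged 82.5 ± 3.77 CPM with shLITATS1-1 and 159.6 ± 0.524 CPM with shLITATS1-2, against 198 ± 8.06 CPM with shNT. TRIB3 fell by 1.26 (SE 0.037) with shLITATS1-1 and 0.31 (SE 0.034) with shLITATS1-2. NUPR1, a stress-induced chromatin protein, fell by 1.47 (SE 0.12) with shLITATS1-1 and rose by 0.27 (SE 0.091) with shLITATS1-2. CHAC1, which degrades glutathione, fell by 1.20 (SE 0.14) with shLITATS1-1 and gave 0.24 (SE 0.11) with shLITATS1-2, which did not pass. SESN2, a sensor of leucine and stress, rose by 0.82 (SE 0.082) with shLITATS1-1 and 1.14 (SE 0.078) with shLITATS1-2.

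**Figure D5:**
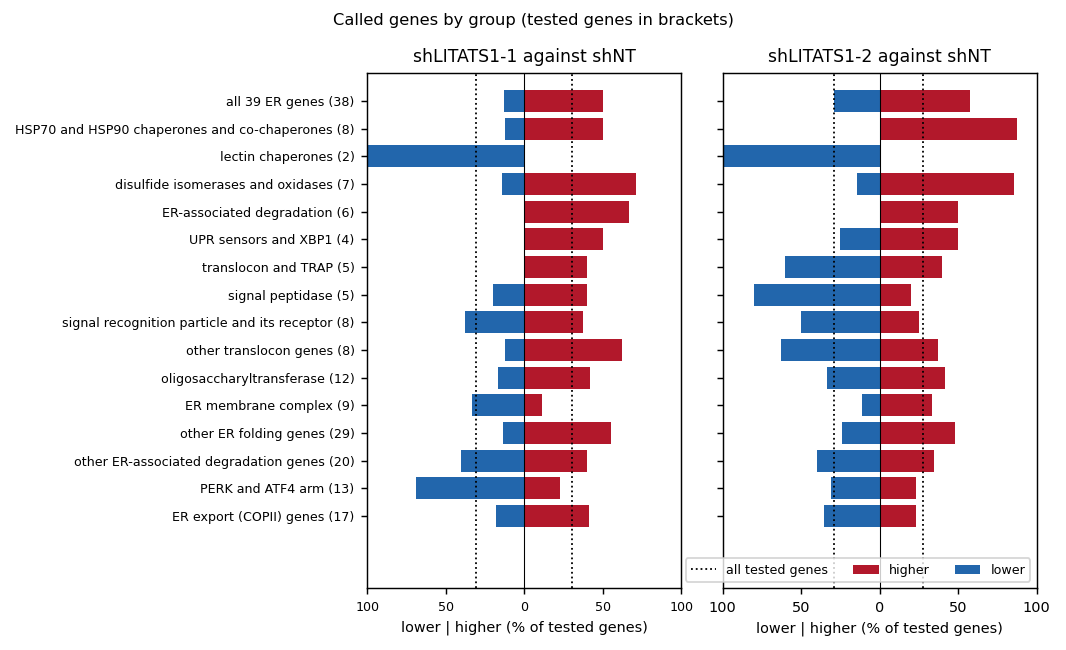
Percent of tested genes called higher (red, to the right) and lower (blue, to the left) with shLITATS1-1 and with shLITATS1-2 against shNT, for the 39 genes, their roles and the neighbouring lists, with the number tested in brackets and dotted lines at the shares over all genes tested. With shLITATS1-2, 7 of 8 HSP70 and HSP90 chaperone and co-chaperone genes are higher. Of the 4 signal peptidase genes other than SPCS3, which the bars include, 3 are lower, SPCS1 only weakly (-0.097).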

How the data were processed

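RNA was sequenced from 9 libraries of A549 cells, 3 each with shLITATS1-1, shLITATS1-2 and shNT. The authors deposited 1 table of unnormalized counts of fragments per gene. The submitters' processing notes name the build GRCh38 and the tools HTSeq 0.12.4, STAR 2.7.5a, cutadapt 2.10 and FastQC. With annotation release and strand setting not given in the sources used here, overlapping and antisense genes and near-identical copies (PDIA3 with PDIA3P1, SPCS2 with SPCS2P4) have uncertain counts. Groups came from the sample titles. The counter's 5 summary lines entered neither library sizes nor tests. Unaligned fragments made up 5.56% of all fragments with shLITATS1-1 and 5.43% with shLITATS1-2, against 3.79% with shNT, and ambiguous ones 10.2% with shLITATS1-1 and 10.3% with shLITATS1-2, against 10.8% with shNT. Replicate pairs differed by more than sampling noise (chi-square per degree of freedom 1.47 to 2.72), so none was taken for a second copy.

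The filter (filterByExpr, at least 10 counts) kept 15500 of 60676 genes. All 9 libraries entered 1 edgeR 4.0.16 quasi-likelihood fit (R 4.3.3, TMM scaling, 6 residual degrees of freedom, biological coefficient of variation 2.71%). Tests were two-sided with Benjamini-Hochberg adjustment over all genes and a threshold of 0.05. Log2 fold changes and 95% intervals are edgeR's. Levels per kb divide CPM by the length of all GENCODE 29 exons of a gene, and coordinates are from GENCODE 29. Promoter windows are RefSeq's. The procedure was tested on simulated data.

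The 39 genes, the lists and the tests were chosen with earlier results of these data known. Named are all 39 genes, LITATS1 and, from each list, genes among the 4 called ones with the largest absolute change in either comparison with shNT that averaged 1 or more in log2 CPM. The comparison with genes that averaged 4 or more in log2 CPM, the choice of the promoters printed and of the 10 genes plotted by library were made after the data were seen. The alternatives were DESeq2 1.42.0, DESeq2's size factors in edgeR, library-size scaling, offsets for GC content and for gene length, the replicate number as a block, a filter of 50 counts or none, a fit of only the 6 libraries of a comparison, a 0.01 threshold, at least a 2-fold change, and leaving out each library in turn. An item of the blood cell marker list is not reported here.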

Additional observations from a re-analysis of the deposited data

How the results depend on the processing

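Of 2166 values of single genes of the 39 under the alternatives, 2030 kept their direction and their side of the threshold, 96 lost a call, 33 gained one and 7 called values turned. With library-size scaling, SEC61B (0.018) and SPCS1 (0.016) turned for shLITATS1-2 against shNT, and SEL1L (0.056), SSR1 (0.042) and SPCS2 (0.036) between the hairpins. With the GC offset, SEL1L (0.016) and SPCS2 (0.0028) turned between the hairpins. Of genes outside the 39, SAR1A turned to 0.00012 for shLITATS1-2 against shNT and SRP14 to 0.034 between the hairpins with library-size scaling. The cause was not tested.

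The 5 genes lower with shLITATS1-1 became 3 with DESeq2, with a filter of 50 counts, with the replicate block and at a threshold of 0.01, and 2 with the length offset. The 11 lower with shLITATS1-2 became 7 with library-size scaling; counts here for shLITATS1-2 and between the hairpins include SPCS3. With a minimum of 2-fold, edgeR called 0 higher and 0 lower with shLITATS1-1 (also 0 at an unadjusted p under 0.05, and 1 higher, HERPUD1, by DESeq2), 0 higher and 2 lower with shLITATS1-2, and 0 higher and 2 lower between the hairpins. Leaving out 1 library in turn gave 17 to 19 higher and 3 to 5 lower for shLITATS1-1, the 3 without shLITATS1-1 replicate 2, 20 to 22 higher and 9 to 11 lower for shLITATS1-2, and 14 to 15 higher and 12 to 15 lower between the hairpins.

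Deviations of same-numbered libraries had correlations of -0.20 to -0.014 (shLITATS1-1 with shNT), -0.30 to -0.035 (shLITATS1-2 with shNT) and 0.025 to 0.17 (shLITATS1-2 with shLITATS1-1). Differently numbered libraries gave -0.077 to 0.15, -0.15 to 0.23 and -0.12 to 0.081 in the same order. Deviations were taken from the mean of each group of 3, so these values offset each other and cannot exclude a shared batch. The main fit left the replicate number out. With the replicate block, 18 genes were higher and 3 lower with shLITATS1-1, 22 and 10 with shLITATS1-2, and 14 and 13 between the hairpins. EIF2AK3 was the lowest of the 38 genes tested by mean log2 CPM, a level not divided by length. Its 95% interval was -0.16 to 0.12 with shLITATS1-1, so changes within it were not detectable at this depth and number of libraries.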
